A study of Mus musculus with 28 samples.

Results

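LLC, a mouse lung carcinoma cell line of the genotype labelled WT, was cultured for 36 h with vehicle or with 200 nM BAY-876, and the RNA of 3 libraries per group was sequenced. BAY-876 is a small molecule that inhibits GLUT1, the facilitative glucose transporter encoded by Slc2a1, so the comparison asks which transcripts of LLC cells differ when that transporter is inhibited. These are 6 of the 28 libraries of the study. The others came from a 32 h culture experiment with BAY-876 and the cytokine TNF (12 libraries) and from sorted tumour and T cells (10). Of 55291 genes in the table of these 6 libraries, 12937 had at least 10 normalized counts in 3 or more libraries and were tested. No transgene or deletion is given for either group, and all cells are of 1 line. Nothing in the labels states whether replicates are separate cultures, so p-values measure only the spread between these libraries, which may be technical.

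Glucose that enters a cell is phosphorylated, and the transcription factor MondoA (encoded by Mlxip) with its partner MLX senses the sugar phosphate and binds carbohydrate response elements, the paired E boxes in front of Txnip and other targets. TXNIP and ARRDC4 are alpha-arrestins that remove glucose transporters from the cell surface. Shortage of nutrients or protein folding trouble is read by kinases that phosphorylate eIF2alpha, which slows translation and favours the factor ATF4; ATF4 and its partners bind composite C/EBP-ATF elements in genes of amino acid supply, redox balance and stress signalling. Growth signals passing through mTORC1 and MYC set the rate of ribosome production, and factors of the MiT family, such as MITF and TFE3, drive lysosomal genes when mTORC1 is low.

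The response was broad and mostly shallow. By limma, 949 genes were higher and 919 lower with BAY-876 at an adjusted p under 0.05, which is 7.34% and 7.1% of the genes tested and 14.4% together. The median log2 fold change was 0.43 among the genes called higher and −0.37 among those called lower, and 69.3% of all called genes changed by less than 0.5 on the log2 scale. Only 88 higher and 29 lower genes changed by 2-fold or more. A change past 1.5-fold was itself shown for 14 genes (0.108% of those tested, limma treat), 12 higher and 2 lower. The libraries of the groups did not overlap in 4750 genes, 36.7% of those tested, beside the 14.4% that were called. Genes called lower had a median transcript length of 3934 bases and GC content of 47.8%, genes called higher 3110 bases and 52.6%, and all tested genes 3247 bases and 49.5%; the part of these properties in the calls was not tested.

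Summed normalized counts ran from 16847994 to 17134536 per library; normalization had already brought them close together, so they are not the sequencing depth. Mitochondrial transcripts took 2.89 to 2.94% of the counts with BAY-876 and 2.61 to 2.72% with vehicle. The first principal component (38.6% of variance) separated the groups. The second (20.5%) set BAY-876 replicate 1 apart, at 29.3, from BAY-876 replicates 2 and 3 at −18.1 and −12.1 and the vehicle libraries at −6.56 to 4.01. Without that library 2394 genes were called, and without vehicle replicate 1, 2 or 3 765, 714 and 648 were. The cells were checked against marker genes. Of 13 LLC markers 9 were tested, including Vim, Krt8 and Hmga2. None was higher and 1, Krt18, was lower. The LLC marker counts were 1, 0 and 0 higher and 1, 1 and 0 lower without BAY-876 replicate 1, 2 and 3, while they were 0, 1 and 0 lower without vehicle replicate 1, 2 and 3, and 0 lower without the mean-variance trend. The sum of the list was 71030 to 75710 normalized counts with BAY-876 and 70300 to 71030 with vehicle, while Epcam, Cdh1 and Krt7 stayed under 10 in every library and Cdh2 was at 0. Of 18 immune cell markers 11 were at 0 in every library, Ptprc, Cd3e and Adgre1 among them, and the list summed to 40.05 to 82.5 with BAY-876 and 55.3 to 61 with vehicle. Stroma and vessel markers summed to 785 to 1289 and 928 to 1101, nearly all of it Pdgfra. None of these immune or stroma markers passed the test. In bulk RNA, fewer cells of a type and less RNA per cell cannot be told apart.

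**Figure D1:**
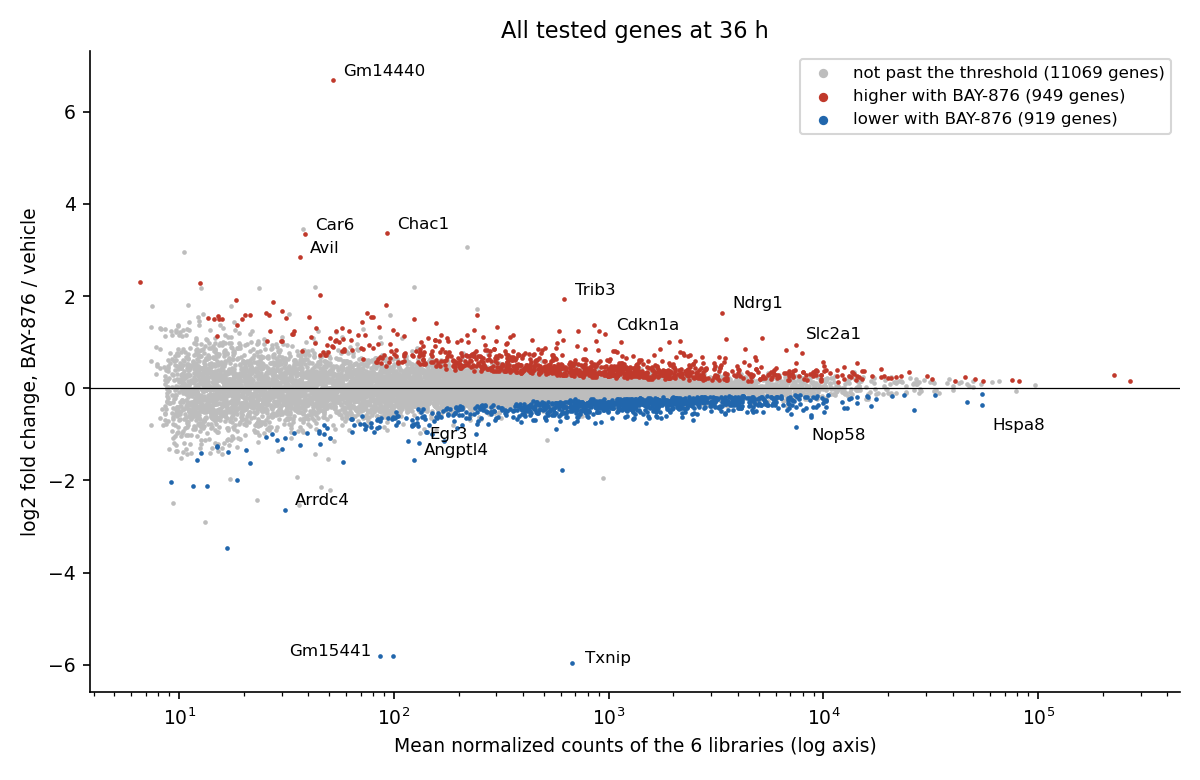
Each point is 1 of the 12937 tested genes, with its mean normalized count over the 6 libraries on the x axis (log axis) and its log2 fold change, BAY-876 over vehicle, on the y axis. Red points are the 949 genes called higher, blue points the 919 called lower; Txnip lies at −5.96 and Chac1 at 3.36, while 69.3% of called genes lie within 0.5 of 0. The height of Gm14440 depends on the pseudocount, since its vehicle libraries are at 0.

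The 2 lowest values among the 14 genes past 1.5-fold came from 1 locus. Txnip read 28.3, 22.1 and 13.3 normalized counts with BAY-876 against 1267, 1369.6 and 1359 with vehicle. No BAY-876 library came near a vehicle library (log2 −5.96, SE 0.23, limma adjusted p = 5.05e-06). Gm15441, a transcript singled out after its values were seen, read 1.03, 4.29 and 3.02 against 166, 218 and 202 (log2 −5.80, SE 0.37, limma adjusted p = 7.92e-05). GENCODE places Txnip at chromosome 3, 96557957 to 96561883 on the plus strand, and Gm15441, an antisense gene, at 96555765 to 96566801 on the minus strand of GRCm38, so that the whole of Txnip lies inside it. The sources used here do not give whether the counting used strand, and without strand the reads of the pair cannot be told apart. Arrdc4, which encodes the alpha-arrestin most like TXNIP, fell from 64.9, 56.6 and 39.5 to 3.63, 9.44 and 12.4 normalized counts (log2 −2.63, SE 0.42, limma adjusted p = 0.00575).

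The promoter of Txnip holds the letters of a carbohydrate response element. The 250 bases before the RefSeq start of Txnip (chr3:96557707-96557956, plus strand, GRCm38.p6) and of Arrdc4 (chr7:68749239-68749488, minus strand) are shown 5′ to 3′ because these were the protein-coding genes with the 2 lowest log2 fold changes under the rule for named genes. Capitals mark the motif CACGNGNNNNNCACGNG, a pair of E boxes 5 bases apart, searched on both strands; in Txnip it starts 85 bases before the transcript.
Txnip: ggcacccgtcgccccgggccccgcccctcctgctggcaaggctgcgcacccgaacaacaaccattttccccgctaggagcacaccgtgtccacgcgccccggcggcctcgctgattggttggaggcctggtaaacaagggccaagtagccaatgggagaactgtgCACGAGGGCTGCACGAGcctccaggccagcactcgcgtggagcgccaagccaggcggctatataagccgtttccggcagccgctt
Arrdc4: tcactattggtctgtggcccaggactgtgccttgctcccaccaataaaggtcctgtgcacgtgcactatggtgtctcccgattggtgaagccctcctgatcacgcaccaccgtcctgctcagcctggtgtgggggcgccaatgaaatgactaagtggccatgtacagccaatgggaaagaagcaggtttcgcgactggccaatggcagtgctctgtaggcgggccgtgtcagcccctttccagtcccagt
The Arrdc4 window holds no match to these letters. Among 9477 tested genes with a RefSeq window of 300 bases (250 before and 50 after the start), 10 held the motif, 0.106%. Of the 725 called higher 2 held it (Fnip1 and Nfkb2), and of the 730 called lower 2 (Txnip and A430005L14Rik).

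Of 12 tested arrestins, MondoA-MLX factors and their network partners, 0 were higher and 3 lower, 25% called against 14.4% of all genes. The median log2 fold change was 0.02 against 0.00 over all genes, 0.09 without BAY-876 replicate 1 and −0.10 without vehicle replicate 1. The third lower member was Max, the dimer partner of MYC and MXD proteins, which read 2296, 1978 and 2237 normalized counts with BAY-876 against 2739, 2615 and 2774 with vehicle (log2 −0.32, SE 0.07, limma adjusted p = 0.0168). Mlxip, which encodes MondoA, read 679, 749 and 746 against 709.7, 769.6 and 695 (log2 0.00). Mlx read 622, 705 and 662 against 667, 784 and 788 (log2 −0.17); the libraries of both overlapped. The other members did not pass the test, with log2 Arrdc1 0.42, Arrdc2 −0.12, Arrdc3 0.20, Mlxipl 0.04, Mxd1 0.35, Mxd4 0.26 and Mnt 0.36. Slc2a1, the gene of the inhibited transporter, read 9246, 9936 and 10157 normalized counts with BAY-876 against 5227, 5057 and 5027 with vehicle (log2 0.94, SE 0.05, limma adjusted p = 3.44e-05, past 1.5-fold), with all 3 BAY-876 libraries above all vehicle libraries. It was the 1 of 5 tested Slc2a genes that passed; Slc2a3, the gene of GLUT3, read 243, 277 and 233 against 207, 262 and 274 with overlapping libraries (log2 0.03), and Slc2a8, Slc2a9 and Slc2a10 had log2 −0.10, 0.44 and −0.25. For Max the call was lost on leaving out vehicle replicate 1 or 3.

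Of regulators and direct readouts of the integrated stress response 14 of 23 tested members were higher and 0 lower (60.9% called). Over all genes 14.4% were called. This and the other lists were made with earlier results of these data known, so their shares called are no independent measure. The median log2 fold change of the 23 members was 0.55. That median was 0.28 over the members with a mean of at least 100 normalized counts. Chac1, which degrades glutathione, read 158, 172 and 179 normalized counts with BAY-876 against 12.5, 16.6 and 18.2 with vehicle (log2 3.36, SE 0.20, limma adjusted p = 7.29e-05). Trib3, a pseudokinase that restrains AKT and ATF4, read 981, 951 and 1020.0 normalized counts with BAY-876 against 206, 266 and 313 with vehicle (log2 1.93, SE 0.14, limma adjusted p = 0.000167). In both genes every BAY-876 library lay above every vehicle library by a wide margin, though the choice of leading genes required no overlap. Gdf15, a secreted stress cytokine, stood at 68.8, 63.7 and 86.1 against 11.9, 21.4 and 19.1 (log2 2.03). The transcription factor Atf3 read 92.2, 169.5 and 91.7 against 34.7, 40.5 and 38.9 (log2 1.55), where BAY-876 replicate 2 was high among its group. Ddit3, which encodes CHOP, Sesn2 and Ddit4, inhibitors of mTORC1, and Atf5 had log2 Ddit3 1.33, Sesn2 1.24, Ddit4 1.03 and Atf5 0.91. The smaller changes that passed were Stbd1 0.80, Cebpb 0.74, Nupr1 0.61, Eif4ebp1 0.54, Ppp1r15a 0.41 and Atf4 0.15. Atf4 itself read 10327, 10291 and 10307 against 9250.4, 9206 and 9402, a small shift between tightly grouped libraries (limma adjusted p = 0.0328). The eIF2alpha kinases Eif2ak1 to Eif2ak4 had log2 Eif2ak1 −0.14, Eif2ak2 −0.02, Eif2ak3 0.00 and Eif2ak4 −0.11 and none passed, nor did Cebpg 0.15, Jdp2 0.13, Nars 0.08, Ppp1r15b 0.02 and Rhbdd1 −0.08; Vldlr and Fgf21 were not tested. For Ppp1r15a and Atf4 the call was lost on leaving out any 1 vehicle library or BAY-876 replicate 2 or 3, and for Cebpb on leaving out vehicle replicate 2 or 3 or BAY-876 replicate 3. The list counted 11 to 14 higher members when any 1 library was left out.

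Several of these genes carry a CARE, the C/EBP-ATF response element, close to their start. Windows around it are shown for 8 genes called higher, chosen after their values were seen, with the letters TGATGNAA or their reverse complement in capitals and up to 20 flanking bases that end before the transcript starts.
Chac1: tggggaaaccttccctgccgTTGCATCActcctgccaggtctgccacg
Atf3: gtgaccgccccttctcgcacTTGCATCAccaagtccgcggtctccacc
Nupr1: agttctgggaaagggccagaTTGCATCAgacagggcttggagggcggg
Slc7a11: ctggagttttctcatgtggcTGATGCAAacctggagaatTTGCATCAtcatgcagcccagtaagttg
Pck2: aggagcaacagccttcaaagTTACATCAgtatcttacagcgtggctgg
Asns: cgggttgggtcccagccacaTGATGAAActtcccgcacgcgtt
Herpud1: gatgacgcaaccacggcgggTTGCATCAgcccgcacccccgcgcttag
Avil: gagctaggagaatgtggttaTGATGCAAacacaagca
In GRCm38.p6 they lie at chr2:119351029-119351076, plus strand for Chac1, chr1:191183416-191183463, minus strand for Atf3, chr7:126625553-126625600, minus strand for Nupr1, chr3:50443633-50443699, minus strand for Slc7a11, chr14:55540143-55540190, plus strand for Pck2, chr6:7693210-7693252, minus strand for Asns, chr8:94386297-94386344, plus strand for Herpud1 and chr10:127000672-127000708, plus strand for Avil. The window of Slc7a11, which encodes the cystine importer, holds 2 copies in opposite orientation, and that of Avil, an actin regulator of the villin family, holds 1 copy 17 bases before the start. Over the 300-base RefSeq windows on both strands, the motif was found in 5 of 20 stress response regulators with a window (25%), in 31 of 725 genes called higher (4.28%), in 19 of 730 called lower (2.6%) and in 2.5% of all tested genes with a window. A match is a description of the letters, not evidence of binding. The regulators were listed as known stress genes with earlier results in view, so their share is no independent measure.

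**Figure D2:**
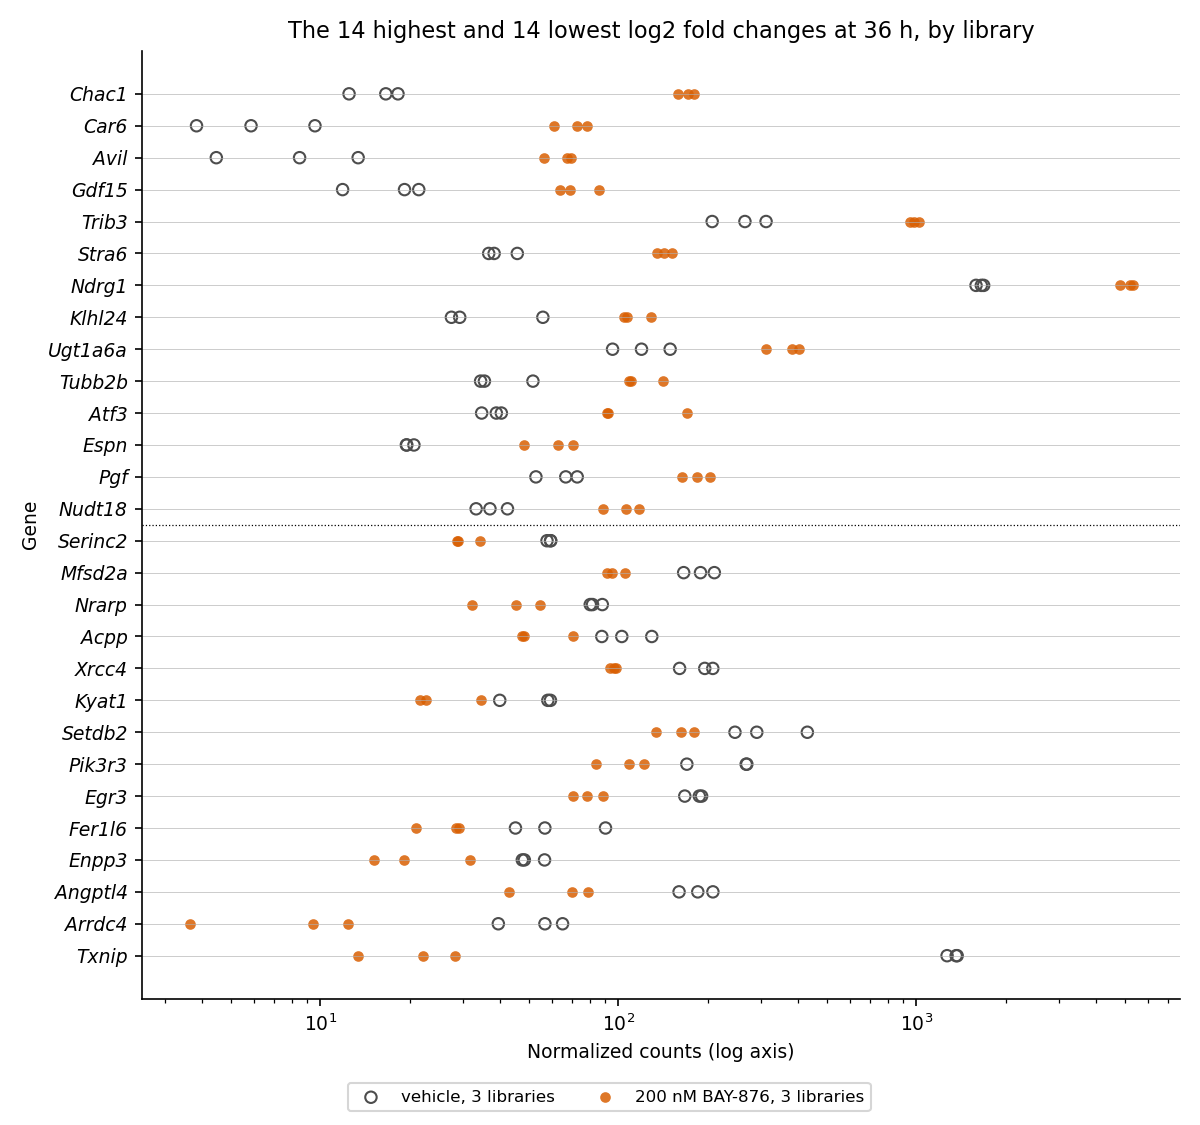
Normalized counts (log x axis) of 28 leading genes, 14 in each direction, picked by log2 fold change from the called genes with at least 50 normalized counts in the higher group; filled points are the 3 BAY-876 libraries and open circles the 3 vehicle libraries. In each row the groups do not overlap, which the choice of these genes required, and the gap is widest for Txnip at the bottom.

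Among enzymes that make serine, glycine and one-carbon units 7 of 17 tested members were higher and 2 lower (52.9% called). The mitochondrial folate enzyme Aldh1l2 read 3918, 5127 and 5335 normalized counts with BAY-876 against 2223, 2271 and 2328 with vehicle (log2 1.06, SE 0.10, limma adjusted p = 0.000688). Mthfd2, also mitochondrial, read 2979, 2951 and 2788 against 1981, 2027 and 2075 (log2 0.52). The serine synthesis enzymes Psph and Phgdh had log2 0.86 and 0.35. The 2 members that fell, named after their values were seen, were the cytosolic folate enzymes Shmt1 and Mthfd1. Shmt1 read 815, 635 and 649 against 1306, 1069 and 1084 (log2 −0.72, SE 0.12, limma adjusted p = 0.00564). Mthfd1 read 4152, 3956 and 4088 against 4798, 5052 and 5121 (log2 −0.30, SE 0.05, limma adjusted p = 0.00645). Of the enzymes of non-essential amino acids, 5 of 21 tested members were higher and 0 lower (23.8% called). Cth, which makes cysteine, read 263, 358 and 376 against 118, 121 and 176 (log2 1.26). Ass1, of arginine synthesis, read 84.7, 67.6 and 74.6 against 32.6, 23.4 and 39.3 (log2 1.25), and Gpt2 and Asns had log2 0.61 and 0.26. The non-essential amino acid counts were 3 higher without the mean-variance trend, while they were 1, 0 and 0 lower without BAY-876 replicate 1, 2 and 3.

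Amino acid carriers went both ways: 6 of 20 tested members were higher and 3 lower (45% called). The cationic carrier Slc7a3 read 629.9, 645 and 679 normalized counts with BAY-876 against 355, 355 and 358 with vehicle (log2 0.87, SE 0.08, limma adjusted p = 0.000489). The cystine importer Slc7a11 read 187, 259.5 and 279 against 103, 124 and 110.3 (log2 1.08, SE 0.17, limma adjusted p = 0.00513), with BAY-876 replicate 1 the lowest of its group. The heavy chain Slc3a2, which both Slc7a11 and Slc7a5 need at the membrane, and the neutral carrier Slc1a4 had log2 0.42 and 0.44. Slc7a6, an exchanger of cationic for neutral amino acids, fell from 1969, 1795 and 1873 to 1030.4, 1203 and 1110.0 (log2 −0.76, SE 0.07, limma adjusted p = 0.000688). Among cytosolic aminoacyl-tRNA synthetases 4 of 24 tested members were higher and 2 lower (25% called), the rises being Sars 0.45, Aars 0.35, Yars 0.26 and Gars 0.25. Among the mitochondrial ones 1 of 17 tested members was higher and 2 lower, with Aars2 0.44, Mars2 −0.42 and Vars2 −0.51. That is 17.6% called, near the 14.4% of all genes. The carrier counts were 2, 2 and 1 lower without vehicle replicate 1, 2 and 3, while they were 1 lower without the mean-variance trend. The cytosolic synthetase counts were 2 higher and 0 lower without the mean-variance trend, while they were 0, 0 and 0 lower without vehicle replicate 1, 2 and 3, and 2, 0 and 0 lower without BAY-876 replicate 1, 2 and 3. For Yars the call was lost on leaving out any 1 vehicle library or BAY-876 replicate 3, and for Aars2 on leaving out vehicle replicate 2 or 3. For Vars2 the call was lost on leaving out vehicle replicate 1 or 3 or BAY-876 replicate 3.

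Of lysosomal and autophagy genes 14 of 40 tested members were higher and 0 lower (35% called), with a median log2 fold change of 0.26, against 14.4% of all genes called. Gpnmb, a lysosomal membrane glycoprotein and MITF target, read 6832, 6955 and 7451 normalized counts with BAY-876 against 3260.3, 3268 and 3433 with vehicle (log2 1.09, SE 0.05, limma adjusted p = 2.15e-05, past 1.5-fold). Sqstm1, the autophagy receptor p62, read 8859, 8591 and 8328 against 4632, 5032 and 4915 (log2 0.82, SE 0.05, limma adjusted p = 7.29e-05). Fnip1, the partner of folliculin at the lysosome surface, read 1211, 1389.5 and 1495 against 763, 755 and 797 (log2 0.82). The protease cathepsin B, Ctsb, was higher by a smaller step in libraries that barely varied, 11719, 11680.1 and 11696 against 8798, 8908 and 9057 (log2 0.39, SE 0.04, limma adjusted p = 0.000714). The lysosome and autophagy counts were 10, 10 and 9 higher without vehicle replicate 1, 2 and 3, while they were 2, 0 and 0 lower without BAY-876 replicate 1, 2 and 3. The CLEAR core TCACGTGA, the letters that MiT factors bind, was counted in the 300-base windows after the values were seen: 5 of 33 members with a window held it (15.2%), 2 of them called higher, against 4% of the genes called higher, 1.23% of those called lower and 2.25% of all tested genes. It always contains an E box, CACGTG, which 12% of all tested genes held. Since the list was made of known lysosomal and autophagy genes, its share is no independent measure.

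Genes that build ribosomes were lower with BAY-876, while no gene of the ribosome's own proteins was. Of 28 tested factors of ribosome biogenesis and nucleotide synthesis, 0 were higher and 17 lower, 60.7% called, with a median log2 fold change of −0.25. Nop58, of the box C/D particles that guide rRNA methylation, read 7184, 7207 and 6689 normalized counts with BAY-876 against 10804, 10116 and 10509.5 with vehicle (log2 −0.58, SE 0.05, limma adjusted p = 0.00039). Nolc1, a nucleolar chaperone, read 5559.9, 6087 and 5518 against 8483, 8439 and 8344 (log2 −0.56). The rRNA methyltransferase Nop2 read 1974, 2048 and 1928 against 2913, 2849.7 and 3028 (log2 −0.56). Nucleolin, Ncl, an abundant nucleolar protein, read 41262, 42348 and 40998 against 51635, 51196 and 51054 (log2 −0.30, SE 0.03, limma adjusted p = 0.00122). The median member lay −0.20, −0.28 and −0.28 on the log2 scale from the vehicle mean in BAY-876 replicates 1, 2 and 3. The count of lower members was 11 on leaving out any 1 vehicle library, 21, 13 and 13 without BAY-876 replicate 1, 2 and 3, and 10 without the mean-variance trend.

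Of 82 cytosolic ribosomal protein genes, 27 were higher and 0 lower (32.9% called), with a median log2 fold change of 0.23. Rps12 read 15134, 12021 and 12374 normalized counts with BAY-876 against 9850.0, 9849 and 10270.4 with vehicle (log2 0.39, SE 0.08, limma adjusted p = 0.0148). Rpl14 read 19618, 16078 and 15991 against 13328, 13109 and 13098 (log2 0.38), with BAY-876 replicate 1 the highest of all 6 libraries in both. That library carried much of the size: the median member lay 0.42 above the vehicle mean in BAY-876 replicate 1 and 0.13 and 0.14 in replicates 2 and 3, on the log2 scale. Without replicate 1 the median was 0.13 and 56 members were higher. Without vehicle replicate 1, 2 or 3 the higher counts were 1, 0 and 0 (1 lower without the first), and 0 without the mean-variance trend. Nearly all calls of this list were thus lost in those fits, and the cause of the loss was not tested. Ribosomal protein genes have many processed pseudogenes, and the sources used here do not give how reads were shared with them. For Rps12 the call was lost on leaving out any 1 vehicle library, and for Rpl14 on leaving out vehicle replicate 2 or 3.

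**Figure D3:**
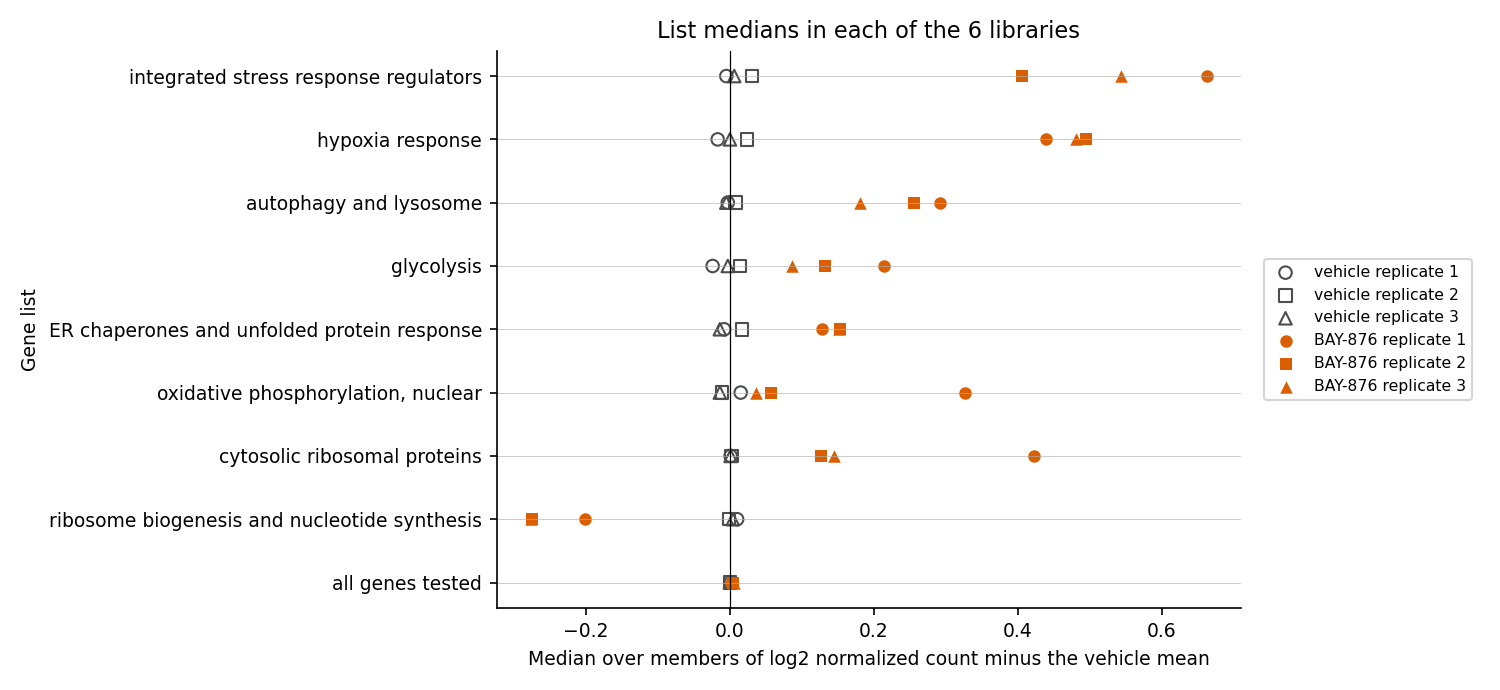
For 8 gene lists and for all tested genes, the x axis gives the median over members of the log2 normalized count minus the gene's vehicle mean, in each of the 3 vehicle libraries (open) and 3 BAY-876 libraries (filled). BAY-876 replicate 1 (filled circle) stands apart for ribosomal proteins at 0.42 and for oxidative phosphorylation at 0.33, while the 3 BAY-876 libraries lie above all vehicle libraries for hypoxia genes and below them for ribosome biogenesis.

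Of chaperones and stress genes of the endoplasmic reticulum 13 of 30 tested members were higher and 0 lower (43.3% called). Herpud1, of the degradation complex, read 681, 654 and 700.1 normalized counts with BAY-876 against 379, 419 and 436 with vehicle (log2 0.72, SE 0.09, limma adjusted p = 0.00154). The transcription factor Xbp1 read 1393, 1289 and 1411 against 951, 952 and 904 (log2 0.54). The oxidase Ero1l read 4848, 6259 and 6695 against 3618, 3805 and 3618 (log2 0.68), and calreticulin, Calr, had log2 0.36. The count was 6, 7 and 7 without vehicle replicate 1, 2 and 3 and 5 without the mean-variance trend. The ER stress element, CCAAT and CCACG 9 bases apart on either strand, was found in 8 of 24 list members with a window (33.3%), 2 of them called higher, and in 0.169% of all tested genes. As the list was made of known endoplasmic reticulum genes, its share is no independent measure. In mitochondria the protease Lonp1 read 5180.2, 5000.5 and 5066 against 3536, 3373 and 3402 (log2 0.56, SE 0.05, limma adjusted p = 0.000353). The chaperone Hspa9 read 15380.4, 15127 and 15426 against 12315, 12299 and 12374 (log2 0.31). Of cytosolic chaperones, Hspa8 fell from 62173, 62608 and 60541 to 47559.9, 47785 and 48603 (log2 −0.36, SE 0.03, limma adjusted p = 0.00053) and its co-chaperone Dnaja1 from 6093, 5900.4 and 5827 to 4840.2, 4779.8 and 4533 (log2 −0.33). Over the whole heat shock and mitochondrial list 2 of 18 tested members were higher and 3 lower (27.8% called).

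Of glycolytic genes 10 of 25 tested members were higher and 1 lower (44% called), at a median log2 fold change of 0.16, which was 0.10 without BAY-876 replicate 1 and 0.09 with quantile normalization. Hexokinase Hk1 read 3238, 3282 and 3315 normalized counts with BAY-876 against 2326, 2469.5 and 2451 with vehicle (log2 0.44, SE 0.05, limma adjusted p = 0.00146), and Pfkp 0.35, Aldoa 0.22 and Gpi1 0.21 followed at smaller sizes. The glycolysis counts were 2, 2 and 2 higher and 0, 0 and 0 lower without vehicle replicate 1, 2 and 3, while they were 10, 5 and 9 higher and 2, 0 and 0 lower without BAY-876 replicate 1, 2 and 3, and 2 higher and 0 lower without the mean-variance trend. Of 11 genes in the pentose phosphate list 2 were higher and 0 lower (18.2% called). Pgm1, an enzyme of the phosphoglucomutase family placed in that list, read 2819, 2974 and 2856 against 1791, 1774 and 1769.8 (log2 0.70, SE 0.05, limma adjusted p = 0.000204). Its rise is not a measure of the pentose phosphate pathway itself. Pgls, the lactonase of the pathway, had log2 0.47. In the list of pyruvate entry and the TCA cycle 5 of 37 tested members were higher and 0 lower (13.5% called). Pck2, the mitochondrial form of PEP carboxykinase, read 1529, 1335 and 1704 against 689, 758 and 810.4 (log2 1.01, SE 0.10, limma adjusted p = 0.000725). Pyruvate carboxylase, Pcx, read 727, 715 and 738 against 525, 550.3 and 517 (log2 0.45). In the salvage of amino sugars Nagk and Gnpda1 had log2 1.03 and 0.73, 2 of 34 hexosamine and N-glycan genes called higher beside 2 called lower (11.8% called). The shares called of the TCA cycle and hexosamine lists lie below the 14.4% of all genes. The pentose phosphate counts were 1, 1 and 1 higher without vehicle replicate 1, 2 and 3, while they were 1 higher without the mean-variance trend. The pyruvate and TCA cycle counts were 2, 2 and 2 higher without vehicle replicate 1, 2 and 3, while they were 6, 7 and 3 higher and 1, 0 and 0 lower without BAY-876 replicate 1, 2 and 3, and 2 higher without the mean-variance trend. The hexosamine counts were 4, 2 and 2 higher and 3, 2 and 1 lower without BAY-876 replicate 1, 2 and 3, while they were 0, 0 and 0 lower without vehicle replicate 1, 2 and 3, and 1 lower without the mean-variance trend. For Aldoa, Gpi1 and Pgls the call was lost on leaving out any 1 vehicle library, and for Pfkp on leaving out vehicle replicate 3.

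Of 42 respiratory chain genes encoded in the nucleus 2 were higher and 0 lower, a smaller share than the 14.4% of all genes. They were Cox4i1 and Uqcrq, subunits of complexes IV and III (log2 0.41 and 0.45). Their median was 0.33 above the vehicle mean in BAY-876 replicate 1 against 0.06 and 0.04 in the other BAY-876 libraries, and 0 passed by limma without vehicle replicate 1, 2 or 3. Of 15 transcripts of the mitochondrial genome 2 were higher (13.3% called). The small ribosomal RNA mt-Rnr1 read 3782, 3119 and 3136 normalized counts with BAY-876 against 2115, 2108 and 2051 with vehicle (log2 0.67, SE 0.08, limma adjusted p = 0.00146). mt-Co1, a subunit of cytochrome oxidase, read 246802, 250645 and 244906 against 199217, 209057 and 203834 (log2 0.28). With quantile normalization this list had 1 higher and 1 lower, and 5 higher and 1 lower without BAY-876 replicate 1. For Cox4i1 the call was lost on leaving out any 1 vehicle library, and for Uqcrq on leaving out any 1 vehicle library or BAY-876 replicate 3.

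**Figure D4:**
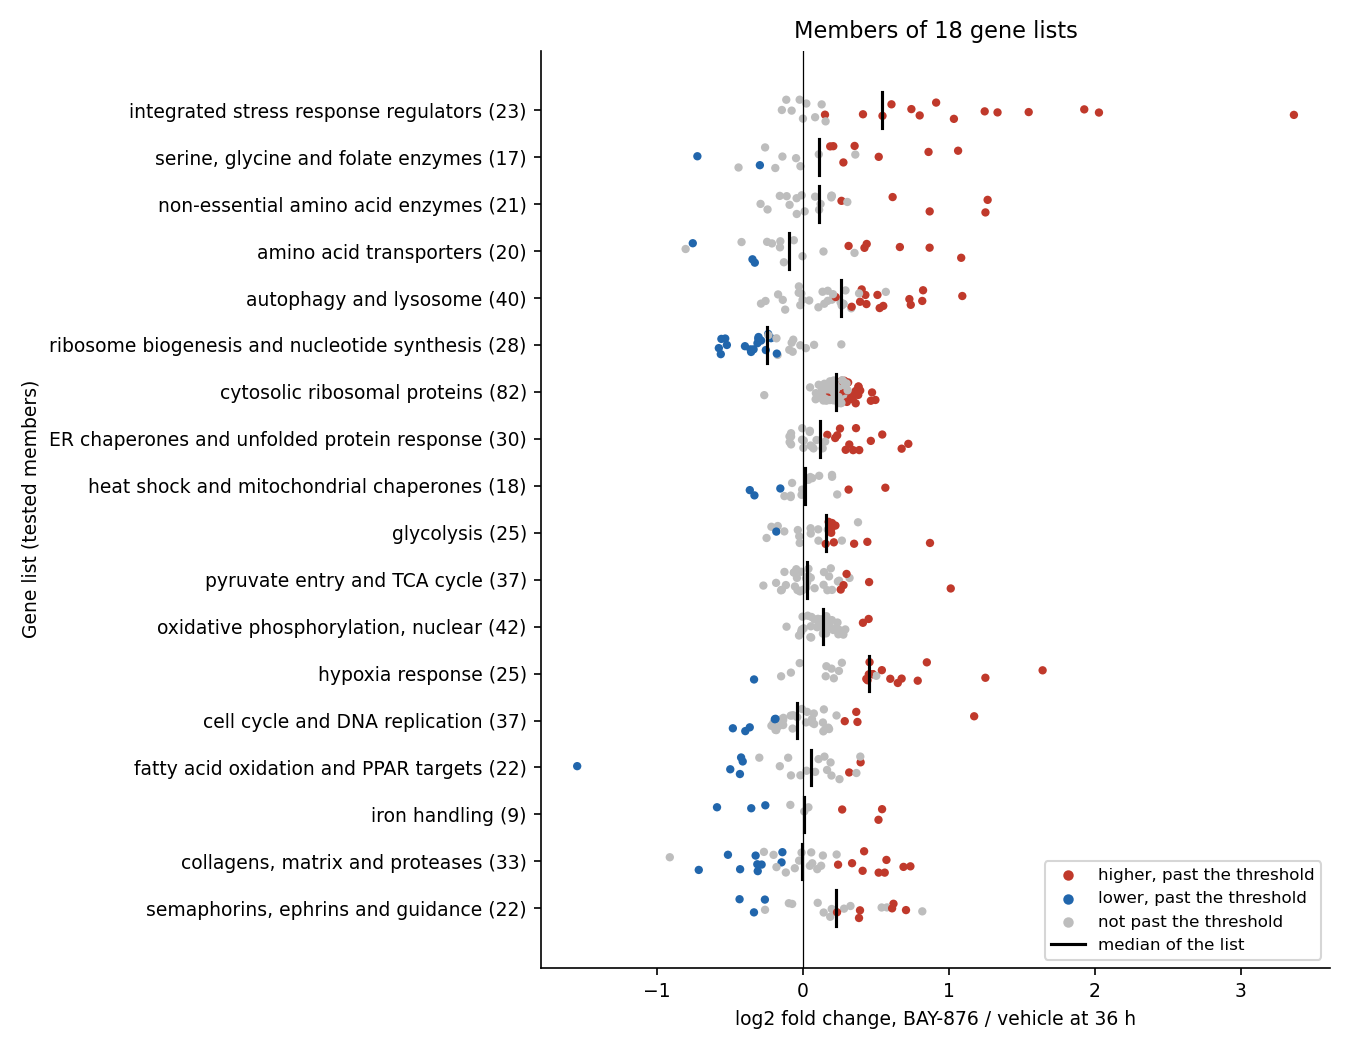
Each point is a tested member of 1 of 18 gene lists, with its log2 fold change, BAY-876 over vehicle, on the x axis; red and blue points passed the test and the black bar is the list's median. The hypoxia and stress response lists lie to the right, ribosome biogenesis to the left, and the matrix list on both sides.

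Of hypoxia-inducible genes 14 of 25 tested members were higher and 1 lower (60% called), with a median log2 fold change of 0.45. The hypoxia counts were 0, 0 and 0 lower without vehicle replicate 1, 2 and 3, while they were 2, 0 and 0 lower without BAY-876 replicate 1, 2 and 3. The higher count was 13 or more with any 1 library left out. Ndrg1, a stress protein of differentiating cells, read 4819, 5223 and 5312 normalized counts with BAY-876 against 1681, 1584 and 1651 with vehicle (log2 1.64, SE 0.06, limma adjusted p = 4.05e-06). Egln1, the oxygen sensor PHD2, read 4140.0, 4359 and 4215 against 2708, 2789.7 and 2608 (log2 0.65), and the vascular growth factor Vegfa and the peptide hormone Adm had log2 0.85 and 0.79. Pgf, a relative of Vegfa among the 14 highest genes, read 184, 202 and 164 against 72.7, 66.5 and 52.8 (log2 1.51, SE 0.17, limma adjusted p = 0.00129). The letters ACGTG, the core that hypoxia-inducible factors bind, were in 15 of 20 list members with a window (75%), against 35.6% of genes called higher, 33.7% of those called lower and 30% of all. The E box contains them. Members were listed as known hypoxia-inducible genes, so their share is no independent measure.

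The genes of 2 inhibitors of cyclin-dependent kinases were higher and that of cyclin D1 was lower. Cdkn1a, which encodes p21, read 1307, 1302 and 1404 normalized counts with BAY-876 against 579.8, 567 and 632 with vehicle (log2 1.17, SE 0.07, limma adjusted p = 7.92e-05, past 1.5-fold). Cdkn1b, which encodes p27, read 1395, 1327 and 1446 against 1132, 1029 and 1057 (log2 0.37), while Ccnd1, cyclin D1, fell from 9396, 9417 and 9273 to 6713, 6598 and 6819 (log2 −0.48, SE 0.04, limma adjusted p = 0.00039) and its kinase Cdk4 rose by log2 0.36. All 3 BAY-876 libraries were on the same side for each of these genes, which were picked by small p. The same held for 36.7% of all tested genes. In the whole cell cycle list 4 of 37 tested members were higher and 5 lower (24.3% called) at a median log2 fold change of −0.04, which was −0.01 without BAY-876 replicate 3. The cell cycle counts were 1, 1 and 1 lower without vehicle replicate 1, 2 and 3, while they were 12, 2 and 3 lower without BAY-876 replicate 1, 2 and 3, and 1 lower without the mean-variance trend. Of p53 targets 4 of 16 tested members were higher and 2 lower (37.5% called). Besides Cdkn1a, the growth arrest gene Gadd45a read 387, 338 and 342 against 167, 181 and 145 (log2 1.11, SE 0.12, limma adjusted p = 0.00117) and the death effector Bax and the RNA-binding protein Zmat3 had log2 0.47 and 0.38. The p53 counts were 3, 3 and 2 higher and 0, 0 and 0 lower without vehicle replicate 1, 2 and 3, while they were 2 higher and 0 lower without the mean-variance trend, and 2, 0 and 0 lower without BAY-876 replicate 1, 2 and 3. Of 25 Bcl2 family and death receptor genes, 2 were higher and 1 lower, 12% called against 14.4% of all genes. They were Mlkl of necroptosis at 0.26 and the TRAIL receptor Tnfrsf10b at −0.27 beside Bax, and 0 passed by limma without vehicle replicate 1, 2 or 3 or without the mean-variance trend. For Mlkl and Tnfrsf10b the call was lost on leaving out any 1 vehicle library or BAY-876 replicate 2 or 3, and for Bax on leaving out any 1 vehicle library. For Zmat3 the call was lost on leaving out vehicle replicate 3.

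Genes of growth factor and nutrient signalling changed in both directions. Over insulin, PI3K, FOXO, mTORC1 and AMPK genes 9 of 40 tested members were higher and 3 lower (30% called). Besides Sesn2 and Ddit4, the FOXO target Klhl24, a ubiquitin ligase adaptor, read 106, 128 and 105 normalized counts with BAY-876 against 29.3, 27.5 and 55.8 with vehicle (log2 1.63, SE 0.27, limma adjusted p = 0.00665), with vehicle replicate 3 high among its group, and Foxo3 had log2 0.43. Pik3r3, a regulatory subunit of PI3 kinase, fell from 269.6, 268 and 169.6 to 108, 122 and 84.3 (log2 −1.15, SE 0.21, limma adjusted p = 0.0101). Of immediate-early and MAPK feedback genes 7 of 31 tested members were higher and 6 lower (41.9% called). Jund read 1257, 990.2 and 1263 against 595, 563 and 552 (log2 1.03, SE 0.10, limma adjusted p = 0.000725), Ier3, an early response gene of survival, had log2 0.72, Myc log2 0.33, and the zinc finger factor Egr3 fell from 167, 190.1 and 187 to 78.7, 70.5 and 88.7 (log2 −1.19). The signalling counts were 6, 6 and 5 higher without vehicle replicate 1, 2 and 3, while they were 5 higher without the mean-variance trend. The immediate-early counts were 4, 4 and 4 higher and 3, 4 and 2 lower without vehicle replicate 1, 2 and 3, while they were 4 higher and 3 lower without the mean-variance trend. Of 10 YAP and TEAD genes 1 was higher and 3 lower (40% called), the coactivator Wwtr1 at 0.36 and Ajuba −0.44, Amotl2 −0.40 and Yap1 −0.19. The YAP and TEAD counts were 1, 0 and 0 lower without vehicle replicate 1, 2 and 3, while they were 1 lower without the mean-variance trend. For Ajuba the call was lost on leaving out vehicle replicate 2 or 3, and for Amotl2 on leaving out any 1 vehicle library. For Yap1 the call was lost on leaving out any 1 vehicle library or BAY-876 replicate 2 or 3.

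Of 22 genes of fatty acid oxidation 2 were higher and 5 lower (31.8% called). Cpt1a, which admits long-chain fatty acids into mitochondria, read 652, 664 and 692 normalized counts with BAY-876 against 959, 943 and 935 with vehicle (log2 −0.50, SE 0.07, limma adjusted p = 0.00279). The first enzyme of the chain, Acadvl, read 555, 510.2 and 520.1 against 732, 681 and 698 (log2 −0.41). Angptl4, a secreted lipase inhibitor and PPAR target, read 79.2, 69.6 and 43 against 185, 159.7 and 207 (log2 −1.55), and Plin3, a lipid droplet coat protein, had log2 0.39. The fatty acid oxidation counts were 0, 0 and 1 higher and 2, 3 and 3 lower without vehicle replicate 1, 2 and 3, while they were 2, 1 and 2 higher and 5, 4 and 3 lower without BAY-876 replicate 1, 2 and 3, and 0 higher without the mean-variance trend. Fatty acid synthesis genes were 4 higher and 3 lower of 22, 31.8% called (Lpin1 0.55, Fads1 0.27, Elovl5 −0.27 and Gpam −0.39). The fatty acid synthesis counts were 1, 0 and 0 higher and 1, 0 and 0 lower without vehicle replicate 1, 2 and 3, while they were 7, 0 and 0 higher without BAY-876 replicate 1, 2 and 3, and 0 higher and 0 lower without the mean-variance trend. Of 25 cholesterol genes Cyp51 −0.49 and Sc5d −0.36 were the 2 lower and 1 was higher, 12% called against 14.4% of all genes. The cholesterol counts were 0, 0 and 2 higher and 2, 1 and 1 lower without vehicle replicate 1, 2 and 3, while they were 1, 2 and 1 higher without BAY-876 replicate 1, 2 and 3, and 0 higher without the mean-variance trend. For Elovl5 and Sc5d the call was lost on leaving out vehicle replicate 2 or 3, and for Acadvl on leaving out vehicle replicate 1. For Plin3 the call was lost on leaving out vehicle replicate 1 or 2, and for Lpin1 on leaving out vehicle replicate 2 or 3 or BAY-876 replicate 2 or 3. For Fads1 the call was lost on leaving out any 1 vehicle library or BAY-876 replicate 2 or 3, and for Gpam on leaving out any 1 vehicle library or BAY-876 replicate 2.

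Of 9 tested iron genes 3 were higher and 3 lower, 66.7% called. The ferritin light chain Ftl1 read 19461, 15399 and 16462 normalized counts with BAY-876 against 11788, 11726 and 11566 with vehicle (log2 0.54, SE 0.08, limma adjusted p = 0.00332). The heavy chain Fth1 read 26568, 24653 and 23975 against 20471, 20734 and 21169 (log2 0.27). Ferritin genes have processed pseudogenes, so their values are uncertain to the extent that the counting shared reads. The iron reductase Steap3 had log2 0.52, and the transferrin receptor Tfrc fell from 1942, 1920.2 and 1926 to 1426, 1649.9 and 1459.9 (log2 −0.35, SE 0.07, limma adjusted p = 0.0118). The iron counts were 0, 1 and 0 lower without vehicle replicate 1, 2 and 3, while they were 0 lower without the mean-variance trend. Antioxidant genes were 5 higher and 1 lower of 30 (20% called, against 14.4% of all genes). Hmox1, which degrades haem, read 1135, 1182 and 1125 against 629, 643 and 665 (log2 0.83, SE 0.07, limma adjusted p = 0.000286). Gsto1 had log2 0.33 and the NRF2 target Osgin1 −0.59. The antioxidant counts were 3, 3 and 3 higher without vehicle replicate 1, 2 and 3, while they were 9, 5 and 4 higher without BAY-876 replicate 1, 2 and 3. For Tfrc the call was lost on leaving out any 1 vehicle library.

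Matrix genes went both ways, 9 higher and 9 lower of 33 (54.5% called). Col6a1, of the beaded filaments, read 3971, 3988 and 4126 normalized counts with BAY-876 against 2532, 2469 and 2495 with vehicle (log2 0.69, SE 0.05, limma adjusted p = 0.00013). The matricellular protein Thbs2 read 3837, 4278 and 4240.1 against 2721, 2848 and 2734 (log2 0.57). The basement membrane genes Lamb1 and Col18a1 fell, from 14302, 14267 and 14412 to 10448, 10539 and 10903 (log2 −0.43, SE 0.04, limma adjusted p = 0.000489) and from 5308, 5421 and 4911 to 3525, 3795 and 3627 (log2 −0.51). The groups did not overlap in any of these 4 genes, which were picked by small p. Of all tested genes 36.7% did not overlap. The matrix counts were 5 higher and 5 lower without the mean-variance trend, while they were 5, 3 and 3 lower without vehicle replicate 1, 2 and 3. Of the ligands and receptors of axon guidance 6 of 22 tested members were higher and 3 lower (40.9% called). The ephrin Efna1 read 393, 385 and 388 against 222, 233 and 262 (log2 0.71, SE 0.10, limma adjusted p = 0.00334), netrin Ntn1 had log2 0.39, and the semaphorin Sema3e and the ephrin receptor Epha2 −0.34 and −0.26. The guidance counts were 2, 2 and 1 higher and 0, 1 and 3 lower without vehicle replicate 1, 2 and 3, while they were 7, 2 and 3 higher without BAY-876 replicate 1, 2 and 3, and 2 higher and 0 lower without the mean-variance trend. Of TGF-beta, BMP and Notch genes 2 of 22 tested members were higher and 2 lower (18.2% called, near the 14.4% of all genes). The ligand Tgfb1 read 243, 191 and 189 against 130.1, 108 and 118 (log2 0.80). The ligand Tgfb2 read 55.8, 43.2 and 60.8 against 76.7, 123 and 86.6 (log2 −0.81). The BMP antagonist Grem1 had log2 0.36 and the BMP readout Id3 −0.43. The TGF-beta counts were 2, 1 and 1 higher and 0, 0 and 0 lower without vehicle replicate 1, 2 and 3, while they were 4, 1 and 1 higher and 1, 0 and 0 lower without BAY-876 replicate 1, 2 and 3, and 1 higher and 0 lower without the mean-variance trend. For Grem1 and Id3 the call was lost on leaving out any 1 vehicle library or BAY-876 replicate 2 or 3, and for Ntn1 on leaving out vehicle replicate 2 or 3. For Sema3e the call was lost on leaving out vehicle replicate 1, and for Epha2 on leaving out vehicle replicate 1 or 2. For Tgfb2 the call was lost on leaving out any 1 vehicle library or any 1 BAY-876 library.

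Of NF-kappaB targets and cytokines 3 of 24 were higher and 3 lower (25% called), with Relb 0.70, Ptgs2 0.44, Csf1 −0.52 and Vcam1 −0.49. Of 18 interferon genes Stat2 was higher and Ifit1 lower, 11.1% called against 14.4% of all genes. Stat2, a transcription factor of interferon signalling, read 222, 320.4 and 235 against 139, 175 and 141 (log2 0.76). Ifit1 read 1.03, 6.44 and 5.04 against 22.1, 20.5 and 14.4, passing the filter through the vehicle libraries alone (log2 −2.13). Among MHC class I genes and T cell ligands 3 of 23 were higher and 1 lower (17.4% called, near the share of all genes). Pvr, the ligand of DNAM-1 and TIGIT, read 1251, 1349 and 1309.9 normalized counts with BAY-876 against 1014, 1026 and 1088 with vehicle (log2 0.32, SE 0.06, limma adjusted p = 0.0142). H2-Q4, which has close paralogs, read 216, 222 and 224 against 159, 157 and 157 (log2 0.48), and Nt5e, the ectoenzyme CD73, had log2 −0.39. B2m, the light chain of class I, had log2 0.17 (limma adjusted p = 0.0499, just inside the threshold). The NF-kappaB counts were 1, 2 and 1 higher without vehicle replicate 1, 2 and 3, while they were 3, 2 and 1 higher without BAY-876 replicate 1, 2 and 3. The interferon counts were 0, 1 and 0 higher and 0, 0 and 0 lower without vehicle replicate 1, 2 and 3, while they were 1, 2 and 1 higher and 1, 2 and 0 lower without BAY-876 replicate 1, 2 and 3, and 0 higher and 0 lower without the mean-variance trend. The MHC and ligand counts were 0, 1 and 1 higher and 0, 0 and 0 lower without vehicle replicate 1, 2 and 3, while they were 3, 2 and 1 higher and 0, 0 and 2 lower without BAY-876 replicate 1, 2 and 3, and 0 lower without the mean-variance trend. For Relb the call was lost on leaving out vehicle replicate 1 or 3 or BAY-876 replicate 3, and for Stat2 on leaving out vehicle replicate 1 or 3. For Ifit1 the call was lost on leaving out BAY-876 replicate 3, and for Pvr on leaving out vehicle replicate 1 or 2. For H2-Q4 the call was lost on leaving out any 1 vehicle library or BAY-876 replicate 3, and for Nt5e on leaving out any 1 vehicle library or BAY-876 replicate 1 or 2. For B2m the call was lost on leaving out any 1 vehicle library or BAY-876 replicate 2 or 3.

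Of 13 acid-base and ion transport genes 4 were higher and 2 lower (46.2% called). The secreted carbonic anhydrase Car6 read 60.9, 78.3 and 72.6 normalized counts with BAY-876 against 3.84, 5.85 and 9.58 with vehicle (log2 3.34, SE 0.34, limma adjusted p = 0.00079), passing the filter through the BAY-876 libraries alone. The mitochondrial carbonic anhydrase Car5b read 160.3, 137 and 166 against 67.1, 76.9 and 64.1 (log2 1.14), and the proton pump subunit Atp6v0d1 had log2 0.60. The acid-base counts were 3, 2 and 2 higher and 3, 1 and 0 lower without BAY-876 replicate 1, 2 and 3, while they were 0, 0 and 1 lower without vehicle replicate 1, 2 and 3, and 1 lower without the mean-variance trend. Other leading genes belong to no list. Avil, the actin regulator whose promoter is shown above, read 69.4, 67 and 56.4 against 4.47, 8.51 and 13.4 (log2 2.84). The actin bundler Espn read 48.4, 70.5 and 62.5 against 19.4, 20.6 and 19.5 (log2 1.54). The tubulin Tubb2b read 142, 108 and 109.9 against 35.5, 51.6 and 34.5 (log2 1.56), which has near-identical paralogs. The retinol receptor Stra6 rose by log2 1.81 and Nudt18, a hydrolase of oxidised nucleotides, by 1.44. Ugt1a6a, a glucuronosyltransferase, had log2 1.60 but shares exons with the other Ugt1a genes, so its value is uncertain. Of genes that fell, Enpp3 −1.23, Fer1l6 −1.22, Setdb2 −0.99, Kyat1 −0.98, Xrcc4 −0.95, Acpp −0.94, Nrarp −0.94, Mfsd2a −0.94 and Serinc2 −0.92 were the next after those described. For Enpp3 the call was lost on leaving out any 1 vehicle library or BAY-876 replicate 2 or 3, and for Fer1l6 on leaving out vehicle replicate 1 or 3 or BAY-876 replicate 2 or 3. For Kyat1 the call was lost on leaving out any 1 vehicle library or BAY-876 replicate 1 or 3, and for Acpp on leaving out vehicle replicate 1 or 2 or BAY-876 replicate 2. For Nrarp the call was lost on leaving out any 1 vehicle library or BAY-876 replicate 2, and for Serinc2 on leaving out any 1 vehicle library.

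Predicted genes on chromosome 2, in a region known for near-identical zinc finger genes, held other extreme values and were singled out after the values were seen. Gm14440 read 78.6, 108 and 125 normalized counts with BAY-876 and was listed at 0 in all 3 vehicle libraries, so no fold is given. Gm14288 read 24.8, 0 and 0 against 186, 152 and 154, with 2 BAY-876 libraries at 0. Gm14296 read 477, 178 and 207 against 1072, 1097 and 614 (log2 −1.78, SE 0.35, limma adjusted p = 0.0132). GENCODE places them at 175275125 to 175286805, 175789357 to 175801093 and 176892509 to 176927809 of chromosome 2 in GRCm38. Gm14440 and Gm14288 passed the filter through 1 group alone. How reads were shared among copies was not tested, so these values are uncertain.

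The same inhibitor at the same concentration was used in the 32 h experiment, in which LLC cells labelled WT were pretreated with 200 nM BAY-876 for 24 h or not, and were then left without TNF for 32 h, with 3 libraries each. The tables were normalized separately, so values are set side by side and no difference between them was tested. The fits also differ, since the spread was estimated over 6 libraries at 36 h and over 12 at 32 h. Numbers of called genes therefore cannot be compared directly. In the 32 h experiment, 4776 of 12780 genes (37.4%) were called by limma, 1473 higher and 3303 lower. Of 12086 genes tested in both, 1447 were called higher and 3264 lower at 32 h, which is the background for the shared calls. Among them 336 were called higher in both, 36% of the 933 at 36 h and 23.2% of the 1447 at 32 h. Another 332 were called lower in both, 36.7% of 904 and 10.2% of 3264. Opposite calls were made for 147 genes higher at 36 h and lower at 32 h (15.8% of the 933). Another 117 went the other way (12.9% of the 904). Across the genes tested in both, the log2 fold changes correlated weakly (Pearson r 0.28, Spearman rho 0.20). Of the 11 genes past 1.5-fold higher at 36 h that were tested in both, 10 were also called higher at 32 h, as both lower ones, Txnip and Gm15441, were called lower. Txnip read 0.491 ± 0.177 against 43.5 ± 0.684 TPM (log2 −4.90, limma adjusted p = 5.22e-08), Chac1 34.6 ± 3.65 against 19.2 ± 0.404 TPM (log2 0.82, limma adjusted p = 1.4e-05), Ndrg1 81.8 ± 6.78 against 34.3 ± 0.479 TPM (log2 1.23, limma adjusted p = 4.44e-06) and Gpnmb 612 ± 20.5 against 298 ± 12.5 TPM (log2 1.04, limma adjusted p = 1.42e-07; mean ± SD, n = 3 libraries).

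Counts of called members at 36 h and 32 h stand side by side here, with no test of a difference. Over all genes tested, 949 were higher and 919 lower of 12937 at 36 h. At 32 h 1473 were higher and 3303 lower of 12780, at a median log2 fold change of −0.09. Calls at 32 h were thus more frequent and leaned lower for genes in general, and list counts are to be read beside these. The spread behind the calls came from 12 libraries in TPM at 32 h and from 6 in normalized counts at 36 h. The part of this in the numbers called was not tested. Ribosome biogenesis genes, 0 higher and 17 lower at 36 h, were 12 higher and 6 lower of 28 at 32 h, and endoplasmic reticulum genes, 13 higher and 0 lower at 36 h, were 2 higher and 17 lower of 30. Cholesterol genes, 1 higher and 2 lower at 36 h, were 17 higher and 0 lower of 24. Stress response regulators were 14 higher and 0 lower of 23 at 36 h and 12 higher and 2 lower of 24 at 32 h. Lysosomal genes were 14 higher and 0 lower of 40 at 36 h and 15 higher and 11 lower of 40 at 32 h. Ribosomal protein genes were 27 higher and 0 lower of 82 at 36 h and 56 higher and 1 lower of 82 at 32 h. Cdkn1a read 12.9 ± 0.643 against 11.7 ± 1.13 TPM at 32 h and did not pass (log2 0.13, limma adjusted p = 0.512), and neither did Klhl24 (log2 −0.18, limma adjusted p = 0.482), Pgf (log2 −0.10, limma adjusted p = 0.831) or Nudt18 (log2 −0.01, limma adjusted p = 0.96). Pgf read 1.03 ± 0.388 against 1.18 ± 0.478 TPM (SE of log2 0.32), near the filter of 1 TPM, where a change could be missed. Of the 14 highest genes at 36 h 13 were tested at 32 h and 10 of them were called higher; of the 14 lowest 12 were tested, 6 were called lower and 1, Mfsd2a, higher. The experiments differed in schedule, in control (titled vehicle at 36 h and control at 32 h) and in unit (normalized counts and TPM). They also differed in separate normalization and in the Salmon version, and all these cannot be told apart.

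**Figure D5:**
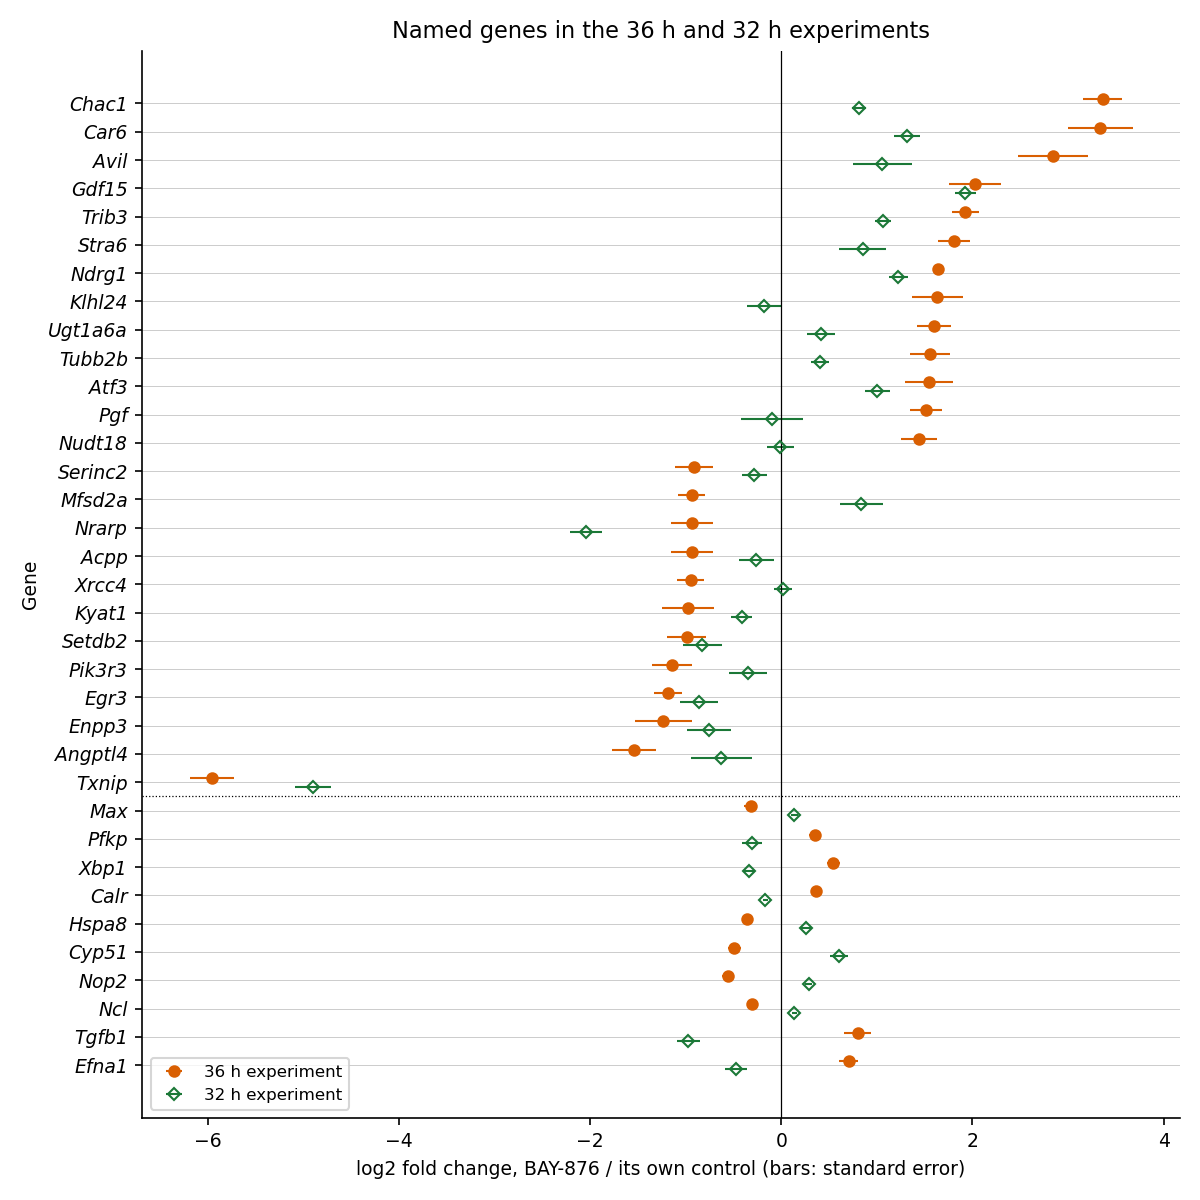
log2 fold changes of BAY-876 over its own control (x axis, bars are standard errors) in the 36 h experiment (filled circles) and the 32 h experiment (open diamonds). Above the dotted line are the leading genes tested in both, below it genes called in opposite directions; Txnip lies at −5.96 and −4.90, and Mfsd2a at −0.94 and 0.84 is the 1 leading gene that was called on both sides.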

How the data were processed

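RNA of cultured LLC cells was measured by mRNA sequencing. Per the submitters' processing notes the tools were STAR 2.6.1d, Salmon 0.14.1 and 0.13.1 and DESeq2 1.34.0, with the build mm10. Whether counting used strand was not stated in these sources. The authors deposited the 36 h libraries as normalized counts, a signal already scaled between libraries, and the 32 h libraries as TPM. Whole reads could not be recovered, so no count test was run. The 36 h column names give a treatment and a number but no time, and were matched on those, since the other LLC culture columns name 32 h; 24 columns of the 32 h table that match no sample here were not used.

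Values were taken as log2(value + 1) and tested with limma 3.58.1 (R 4.3.3; moderated test with a mean-variance trend, Benjamini-Hochberg adjustment over all genes tested, threshold 0.05), after a filter of 10 normalized counts or 1 TPM in 3 libraries. Fold changes are on this scale, which understates those of low genes. Both 36 h groups entered 1 fit; the 32 h fit used the 12 libraries of that experiment. Tested on simulated data with 12937 genes and the 36 h design, the script recovered 57% of changes of 0.5 and 83% of changes of 1 on the log2 scale. The changes were planted in 200 genes with a mean above 50, with noise independent between libraries. These shares therefore do not cover rarer genes or an outlying library. Genes named are the 14 highest and 14 lowest called, non-overlapping genes with a mean of at least 50 in the higher group (no predicted genes), up to 4 members of each of 41 lists by p, and every tested member of the arrestin, Slc2a and stress response lists. Some genes that this rule names are not reported here. Members and lists were chosen with earlier results of these data known. Promoters came from the RefSeq table of GRCm38.p6, matched by symbol for 9477 of 12937 genes; the E box and CLEAR core were added after values were seen. Alternatives were another pseudocount, filter or normalization, no trend, a replicate block and each library left out. Python 3.11.15 with pandas 2.3.3 and matplotlib 3.10.9 made the lists and figures.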

Additional observations from a re-analysis of the deposited data

Results flagged for a closer look

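Of the 202 genes named, 161 passed the test at 36 h and 108 passed in both culture experiments, 97 in the same direction and 11 in opposite directions. Over all genes tested in both, 336 were called higher and 332 lower in both, and 147 and 117 were called in opposite directions. Most named genes were picked by size of change or small p, so their split does not describe genes in general. In each of the 11 named genes every BAY-876 library lay on one side of its own controls at 36 h and on the other side at 32 h. At 36 h the groups did not overlap in 36.7% of all tested genes. The difference between the experiments was not tested, because they were normalized separately and differ in schedule and control. Mfsd2a, a lipid transporter of the plasma membrane, had a log2 fold change of −0.94 (SE 0.14) at 36 h and 0.84 (SE 0.22) at 32 h. Max, the dimer partner of MYC, had a log2 fold change of −0.32 (SE 0.07) at 36 h and 0.13 (SE 0.04) at 32 h. Pfkp, a phosphofructokinase, had a log2 fold change of 0.35 (SE 0.06) at 36 h and −0.31 (SE 0.10) at 32 h. Xbp1, a transcription factor of the unfolded protein response, had a log2 fold change of 0.54 (SE 0.07) at 36 h and −0.34 (SE 0.05) at 32 h. Calr, the chaperone calreticulin, had a log2 fold change of 0.36 (SE 0.05) at 36 h and −0.17 (SE 0.03) at 32 h. Hspa8, a cytosolic chaperone, had a log2 fold change of −0.36 (SE 0.03) at 36 h and 0.26 (SE 0.06) at 32 h.

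Cyp51, an enzyme of cholesterol synthesis, had a log2 fold change of −0.49 (SE 0.07) at 36 h and 0.60 (SE 0.09) at 32 h. Nop2, an rRNA methyltransferase, had a log2 fold change of −0.56 (SE 0.05) at 36 h and 0.29 (SE 0.04) at 32 h. Ncl, nucleolin, had a log2 fold change of −0.30 (SE 0.03) at 36 h and 0.14 (SE 0.02) at 32 h. Tgfb1, a growth factor, had a log2 fold change of 0.80 (SE 0.15) at 36 h and −0.97 (SE 0.12) at 32 h. Efna1, an ephrin, had a log2 fold change of 0.71 (SE 0.10) at 36 h and −0.47 (SE 0.11) at 32 h. Groups of 3 libraries are too small for a check of single outlying values.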

How the results depend on the processing

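Over the 202 named genes and 12 alternatives, no gene that passed the limma test changed sign, while 10 genes that had not passed it, Slc2a3 and Mlxipl among them, changed sign in 21 values. In all, 2098 values stayed on their side of the limma threshold, 271 lost it and 15 gained it. The number of genes called, 1868, depended on how the spread was estimated. Without the mean-variance trend it was 841 (447 higher, 394 lower, and 7 past 1.5-fold in place of 14). Leaving out 1 library gave 648 to 2394 genes called, 355 to 1224 higher, 293 to 1170 lower and 5 to 17 past 1.5-fold. The lowest counts called came without vehicle replicates 1 to 3 (765, 714 and 648) and BAY-876 replicate 3 (1072), and the highest without BAY-876 replicate 1. With genes of a mean of at least 100 normalized counts 8 genes were past 1.5-fold. Whether equal replicate numbers pair the libraries is not given by the labels. Deviations of equal-numbered libraries from their group means correlated at −0.0742, −0.0477 and −0.0194 across genes. With 3 libraries a group such values cannot settle the question. With the replicate block 1563 genes were called and 9 were past 1.5-fold. The cause of these shifts was not tested, nor was the part of the smaller number of libraries in them. The 32 h count stayed within 1.5 times of 4776 under the alternatives run. With 3 libraries a group and a median SE of 0.11, small changes of rarely read genes were not detectable.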
